A study of Mus musculus with 4 samples.

Results

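Serine synthesis and the folate one-carbon cycle were followed through 10 genes, taken from the gene table by name: Phgdh, Psat1 and Psph of serine synthesis, Shmt1, Mthfd1 and Aldh1l1 of the cytosolic folate pathway, and Shmt2, Mthfd2, Mthfd1l and Aldh1l2 of its mitochondrial branch. All 10 were among the 22079 genes of the table. All 10 passed the filter on low values, which asked for 1 FPKM or more on average over the 4 libraries. The libraries were mRNA of primary hepatocytes from Prom1-/- mice (KO, n = 2) and wild-type mice (WT, n = 2), all C57BL/6 males of 8 weeks, with biological replicates per the labels. In both groups the cells attached for 4 hours in a medium with 10% serum and 10 nM dexamethasone and were then kept without serum overnight.

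Serine is made in the cell from a glycolytic intermediate by Phgdh, Psat1 and Psph in turn. Serine hydroxymethyltransferases then move a carbon of serine onto tetrahydrofolate, leaving glycine, and a parallel set of folate enzymes in the cytosol and in mitochondria passes that carbon on as formate, or to purine, thymidylate and methionine synthesis. In the liver, cytosolic folate enzymes such as Aldh1l1 are abundant, and in many cell types transcription of the serine synthesis and mitochondrial folate genes responds to ATF4, the factor of the amino acid and integrated stress responses.

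The targeted gene, Prom1 (ENSMUSG00000029086), had a listed 0 in KO 1 and 0.0458 FPKM in KO 2, against 0.571 FPKM in WT 1 and 1.22 FPKM in WT 2. Among hepatocyte markers Alb stood at 25551 and 32670 FPKM in the KO libraries, against 27103 FPKM in WT 1 and a listed 0 in WT 2, which may be a failed estimate rather than a level. The other 8 hepatocyte markers found in the table summed to 9446 and 10402 FPKM in the KO libraries, against 9251 and 11202 FPKM in the WT libraries, mostly from Apoa1. Of these markers, the hepatocyte transcription factor gene Hnf4a was lower in both KO libraries, at 64.9 and 59.5 FPKM in KO, against 90.4 and 95.8 FPKM in WT. The aminotransferase gene Tat was lower too, at 62.5 and 69.8 FPKM in KO, against 82.6 and 80.8 FPKM in WT. Apob was higher, at 566 and 623 FPKM in KO, against 518 and 501 FPKM in WT, and the remaining markers overlapped. Of the 9 hepatocyte markers tested, 1 was thus higher and 2 lower in both KO libraries, where 18.3% and 19.8% of all genes tested were. Among lymphocyte and neutrophil markers Cd79a, Nkg7 and S100a9 were listed at 0 in all 4 libraries. Ptprc was present in all, at 0.886 and 0.516 FPKM in KO, against 0.343 and 0.542 FPKM in WT. S100a8 was listed only in KO 2 (0.370 FPKM) and WT 2 (0.706 FPKM), and Cd3e only in KO 2 (0.191 FPKM). The depth was estimated at 17700000 and 14900000 fragments for the KO libraries, against 19000000 and 15400000 for the WT libraries.

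The promoters of the 3 serine synthesis genes are shown first, because these genes stood higher in both KO libraries. With them are those of Shmt2, which stood lower, and of Asns, an ATF4 target outside the 10 genes. Sequences are RefSeq's on GRCm38.p6, each 300 bases from 250 before to 50 after an annotated start, written in the direction of transcription. They lie at chr3:98339920-98340219 on the minus strand (Phgdh), chr19:15925010-15925309 on the minus strand (Psat1, the outer of 2 listed starts), chr5:129787204-129787503 on the minus strand (Psph), chr10:127522395-127522694 on the minus strand (Shmt2) and chr6:7693160-7693459 on the minus strand (Asns). Capitals mark CCAAT boxes (CCAAT), the antioxidant response element (TGACNNNGC) and the core of the C/EBP-ATF response element (TGATGNAA), each searched on both strands.
Phgdh: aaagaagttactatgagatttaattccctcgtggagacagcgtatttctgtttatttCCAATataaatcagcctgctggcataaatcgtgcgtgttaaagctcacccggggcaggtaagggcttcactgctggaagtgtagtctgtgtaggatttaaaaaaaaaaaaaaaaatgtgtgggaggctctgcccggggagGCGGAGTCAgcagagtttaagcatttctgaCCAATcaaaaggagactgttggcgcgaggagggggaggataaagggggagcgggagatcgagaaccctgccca
Psat1: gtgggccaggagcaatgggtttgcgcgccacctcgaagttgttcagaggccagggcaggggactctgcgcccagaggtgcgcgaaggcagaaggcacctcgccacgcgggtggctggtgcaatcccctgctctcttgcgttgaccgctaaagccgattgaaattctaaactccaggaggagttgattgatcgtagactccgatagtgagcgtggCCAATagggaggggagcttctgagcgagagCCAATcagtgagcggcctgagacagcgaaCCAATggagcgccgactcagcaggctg
Psph: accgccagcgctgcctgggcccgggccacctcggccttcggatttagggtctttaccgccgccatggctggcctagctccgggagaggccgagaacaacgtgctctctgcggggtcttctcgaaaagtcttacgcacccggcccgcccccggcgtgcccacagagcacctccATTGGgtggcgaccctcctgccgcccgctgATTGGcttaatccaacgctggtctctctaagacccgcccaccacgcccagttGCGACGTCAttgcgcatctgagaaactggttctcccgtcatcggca
Shmt2: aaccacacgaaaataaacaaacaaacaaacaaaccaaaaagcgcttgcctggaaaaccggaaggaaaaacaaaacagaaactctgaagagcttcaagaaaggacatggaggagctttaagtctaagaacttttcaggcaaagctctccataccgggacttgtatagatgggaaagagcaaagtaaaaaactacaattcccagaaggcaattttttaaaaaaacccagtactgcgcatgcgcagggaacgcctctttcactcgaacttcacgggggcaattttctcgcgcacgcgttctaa
Asns: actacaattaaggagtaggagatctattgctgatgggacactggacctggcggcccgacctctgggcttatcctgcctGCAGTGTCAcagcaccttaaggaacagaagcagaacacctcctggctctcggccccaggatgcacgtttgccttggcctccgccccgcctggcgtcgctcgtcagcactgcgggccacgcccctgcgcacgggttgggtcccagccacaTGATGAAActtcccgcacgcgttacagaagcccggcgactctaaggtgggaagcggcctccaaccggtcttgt

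Of the 10 genes, 9 had a promoter in the RefSeq set, and none of the 9 held TGATGNAA in this window. That motif was in 3.97% of all 32851 promoters. In the list of other ATF4 targets, which also held Atf4 itself, 9 of 22 genes had it, among them Asns, where it began at position -23. CCAAT, looked for after the sequences were seen, was in the promoters of 7 of the 9 genes and in 37.41% of all promoters. In the ATF4 list 14 of 22 genes had it. Besides the serine synthesis genes, Shmt1, Mthfd1, Aldh1l1 and Mthfd2 held CCAAT, while Shmt2 and Mthfd1l did not. In the outer Psat1 promoter CCAAT began at positions -36, -6 and 24, and in the Phgdh promoter at -193 and -23. In the Psph promoter it lay on the opposite strand, beginning at -78 and -48. TGACNNNGC was in the promoters of Phgdh and Psph and in 12.39% of all promoters, and the E-box CACGTG was in none of the 9 and in 7.15% of all. No marked motif overlapped another in the printed promoters. A match says only that these letters are present.

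All 3 serine synthesis genes stood higher in both KO libraries than in either WT library. Phgdh, the dehydrogenase that commits the glycolytic intermediate to serine, stood at 23.3 FPKM in KO 1 and 15.5 FPKM in KO 2, against 12.4 FPKM in WT 1 and 8.35 FPKM in WT 2. FPKM are fragments per kilobase of transcript scaled to sequencing depth, so they can be compared between genes. The groups did not overlap, although KO 2 lay closer to WT 1 than to KO 1. Phgdh averaged 19.4 ± 5.52 FPKM in KO and 10.4 ± 2.86 FPKM in WT (SD, n = 2 each), a difference in log2(FPKM + 1) of 0.84 (SE 0.24, 95% interval 0.24 to 1.44). Its limma p was 0.0141 unadjusted and 0.57 adjusted over the 10407 genes tested. The Phgdh difference was the largest of the 10 genes on this scale, and 0.86% of genes tested had a log2 difference at least as large in either direction. Over the other genes of the 10 that share ran from 1.8% (Aldh1l2) to 53.36% (Mthfd1). Phgdh (ENSMUSG00000053398) lies at chr3:98313170-98339990 on the minus strand in mm10, and a pseudogene named after it, Phgdh-ps1, could share its fragments.

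Psat1, the aminotransferase that follows Phgdh, was the most abundant of the 3 genes, at 70.4 and 52.8 FPKM in the KO libraries, against 42.5 and 39.2 FPKM in the WT libraries. The WT libraries lay close together and the KO libraries spread wider, with KO 1 highest. Its log2 difference was 0.57 (SE 0.15, 95% interval 0.19 to 0.94, limma unadjusted p = 0.0101, adjusted p = 0.562), and 0.36 without KO 1. The gene (ENSMUSG00000024640) lies at chr19:15904678-15947337 on the minus strand.

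Psph, the phosphatase that releases serine, stood at 21.7 and 20.6 FPKM in the KO libraries, against 16.9 and 13.7 FPKM in the WT libraries. Here the KO libraries were the closer pair. The log2 difference was 0.45 (SE 0.13, 95% interval 0.13 to 0.76, limma unadjusted p = 0.0137, adjusted p = 0.57). Psph (ENSMUSG00000029446, chr5:129765558-129787449, minus strand) shares 452 exonic bases with Cct6a on the opposite strand. Whether counting used the strand is not given in the sources used here, so the Psph value is uncertain to that extent.

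In bulk libraries such as these, a different number of cells of a type and a different amount of RNA per cell cannot be told apart. Sinusoidal endothelial markers (10 of 10 in the table) summed to 88.7 FPKM in KO 1 and 46.8 FPKM in KO 2, against 64.3 and 60.9 FPKM in WT. Stellate and fibroblast markers (10 of 10) summed to 26.0 and 11.7 FPKM in KO, against 15.2 and 17.1 FPKM in WT. Cholangiocyte markers (6 of 6), mostly Spp1, summed to 36.9 and 23.2 FPKM in KO, against 35.5 and 32.4 FPKM in WT. KO 1 was thus highest and KO 2 lowest for each of these lists. Among the 3 tested stellate markers, Reln stood at 2.79 and 2.33 FPKM in KO, against 3.47 and 5.65 FPKM in WT. The other tested ones, Dcn (log2 difference 0.38) and Rgs5 (0.14), overlapped. Dcn, the largest part of each stellate sum, stood at 17.5 and 7.02 FPKM in KO, against 8.31 and 8.39 FPKM in WT. Macrophage markers (10 of 10) summed to 417 and 490 FPKM in KO, against 374 and 370 FPKM in WT. Most of that sum was Cd68, at 393 and 465 FPKM in KO, against 357 and 351 FPKM in WT. No other macrophage marker exceeded 6.28 FPKM in any library, so the sum says little about the rest of the list. Marco stood at 6.28 and 5.70 FPKM in KO, against 2.54 and 3.14 FPKM in WT, and Cd5l at 4.82 and 4.62 FPKM in KO, against 2.81 and 2.28 FPKM in WT. Of the 8 macrophage markers tested, 4 were higher and 1 lower in both KO libraries than in both WT libraries, where 18.3% and 19.8% of all genes tested were. The defining Kupffer cell marker Clec4f overlapped, at 0.599 and 1.57 FPKM in KO, against 0.888 and 1.11 FPKM in WT. The part of these other cell types in the differences was not tested.

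**Figure D1:**
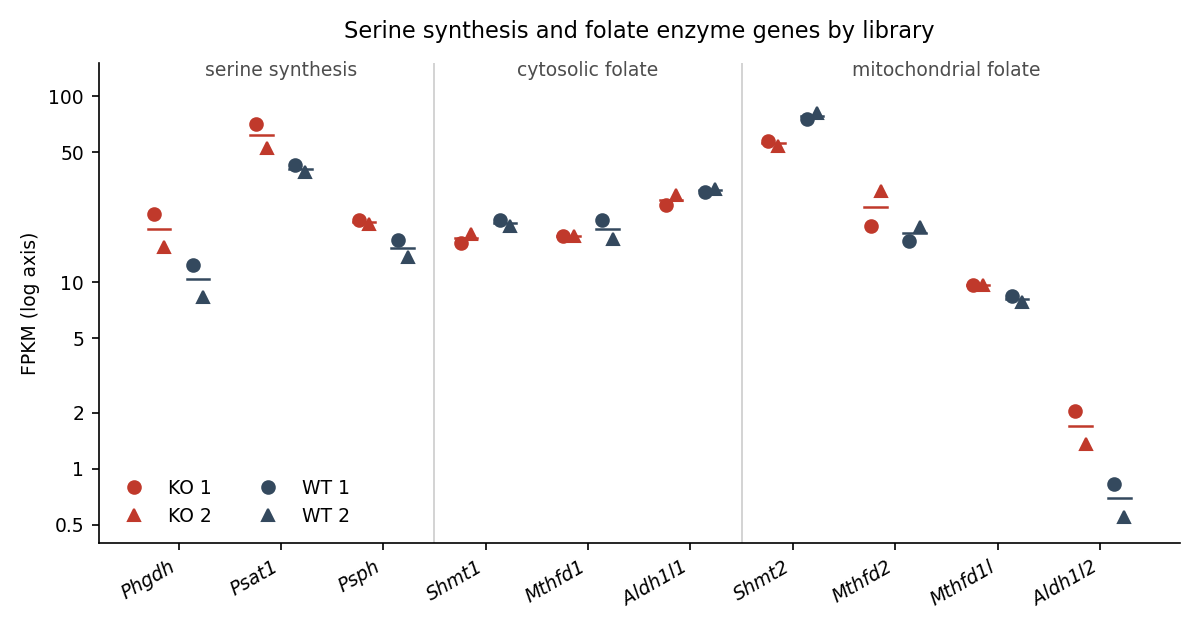
FPKM of the 10 genes in each library on a log axis, with KO (red) left of WT (dark) for each gene, circles for replicate 1, triangles for replicate 2 and a line at the mean of each group. All 3 serine synthesis genes lie higher in both KO libraries, while Shmt2 lies at 57.3 and 54.1 FPKM in KO, against 74.9 and 80.7 FPKM in WT.

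The cytosolic folate genes stood at or slightly below their WT level in KO. Shmt1, the cytosolic serine hydroxymethyltransferase, stood at 16.3 and 18.2 FPKM in the KO libraries, against 21.5 and 20.0 FPKM in the WT libraries. The KO libraries were both the lower ones, with a log2 difference of -0.26 (SE 0.11, limma unadjusted p = 0.0603, adjusted p = 0.687). Shmt1 shares 184 exonic bases with Smcr8 on the opposite strand, which stood at 13.8 and 14.2 FPKM in KO, against 15.9 and 16.1 FPKM in WT. Aldh1l1, the cytosolic dehydrogenase that oxidises formyl-tetrahydrofolate to carbon dioxide, stood at 25.9 and 29.3 FPKM in KO, against 30.6 and 31.9 FPKM in WT. The groups were narrowly apart, and the log2 difference of -0.18 (SE 0.11, 95% interval -0.44 to 0.09, limma adjusted p = 0.763) was -0.09 without KO 1. Aldh1l1 shares 105 exonic bases with Gm45901 on the same strand and 499 with Gm15756 on the opposite strand, neither of which has a listed value. Mthfd1, the cytosolic enzyme that interconverts the one-carbon forms of folate, was the member whose groups overlapped: it stood at 17.8 and 17.7 FPKM in KO, against 21.5 and 17.1 FPKM in WT. Its log2 difference was -0.11 (SE 0.13, 95% interval -0.44 to 0.22, limma adjusted p = 0.886), 0.05 without WT 1 and -0.27 without WT 2.

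The mitochondrial folate genes split. Shmt2, the mitochondrial serine hydroxymethyltransferase and the most abundant of the 10 genes in WT, stood at 57.3 and 54.1 FPKM in the KO libraries, against 74.9 and 80.7 FPKM in the WT libraries. The groups were well apart and each was tight, with means of 55.7 ± 2.24 FPKM in KO and 77.8 ± 4.11 FPKM in WT (SD, n = 2 each). The log2 difference was -0.47 (SE 0.10, 95% interval -0.72 to -0.23), and its limma p of 0.0032 unadjusted, 0.518 adjusted, was the lowest of the 10 genes. Shmt2 (ENSMUSG00000025403, chr10:127517123-127522444, minus strand) shares 32 of its 3109 exonic bases with Ndufa4l2 on the opposite strand. Ndufa4l2, a hypoxia-induced gene, stood at 4.18 and 2.68 FPKM in KO, against 10.3 and 13.9 FPKM in WT, so it too was lower in both KO libraries. Its part in the Shmt2 value was not tested.

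Aldh1l2, the mitochondrial relative of Aldh1l1, was the least abundant gene and had the largest ratio of the 10. It stood at 2.03 and 1.35 FPKM in the KO libraries, against 0.832 and 0.553 FPKM in the WT libraries, so that every KO value exceeded every WT value. The KO mean was 2.44 times the WT mean (1.69 ± 0.479 and 0.693 ± 0.197 FPKM, SD, n = 2 each). The WT mean lay under the 1 FPKM of the filter, which Aldh1l2 passed only through its KO libraries. The log2(FPKM + 1) difference was 0.66 (SE 0.23, 95% interval 0.11 to 1.22, limma unadjusted p = 0.0271, adjusted p = 0.614). At levels near the pseudocount this scale compresses ratios: the difference was 1.17 with a pseudocount of 0.1 FPKM and 0.23 with 5 FPKM. At the length of its longest transcript (6027 bases) and the estimated depth, these values rest on about 209 and 117 fragments in KO, against 92 and 50 in WT. The estimated depth is rough, and so are these fragment numbers. Aldh1l2 (ENSMUSG00000020256, chr10:83487450-83534140, minus strand) shares 1056 of 7503 exonic bases with D10Wsu102e on the opposite strand. That gene stood at 0.507 and 0.577 FPKM in KO, against 0.472 and 0.478 FPKM in WT.

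Mthfd2, the mitochondrial dehydrogenase and cyclohydrolase best known from embryonic and dividing cells, stood at 20.0 and 30.9 FPKM in KO, against 16.7 and 19.9 FPKM in WT. KO 1 exceeded WT 2 only narrowly, and KO 2 stood apart from the other libraries. The log2 difference was 0.43 (SE 0.21, 95% interval -0.09 to 0.95, limma unadjusted p = 0.0897, adjusted p = 0.711), 0.13 without KO 2 and 0.73 without KO 1. Mthfd1l, the mitochondrial synthetase that releases formate for export to the cytosol, stood at 9.67 and 9.64 FPKM in KO, against 8.47 and 7.81 FPKM in WT. The groups were apart by a small margin, a log2 difference of 0.22 (SE 0.11, 95% interval -0.06 to 0.50, limma adjusted p = 0.724).

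**Figure D2:**
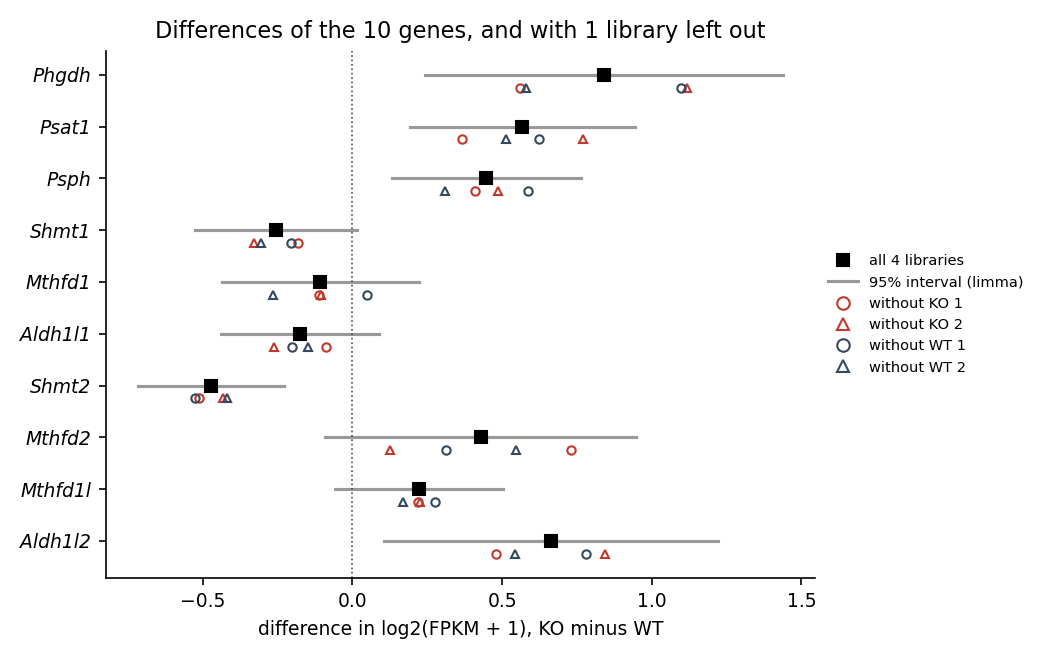
Difference in log2(FPKM + 1), KO minus WT, for each gene with all 4 libraries (black squares) and its 95% interval from limma (grey lines), and with each library left out in turn (open symbols). With all libraries the values run from -0.47 (Shmt2) to 0.84 (Phgdh), and the open symbols cross 0 for Mthfd1 alone, at 0.05 without WT 1.

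Across the 10 genes, 6 were higher and 3 lower in both KO libraries than in both WT libraries, while Mthfd1 overlapped. Among all genes tested, 18.3% were higher and 19.8% lower in that sense, 38.1% in all. The median log2 difference was 0.33 over the 10 genes and 0.00 over all 10407 genes tested. At an unadjusted limma p under 0.05, 4 of the 10 were higher (Phgdh, Psat1, Psph and Aldh1l2) and 1 was lower (Shmt2), against 3.1% higher and 4.19% lower among all genes tested. Aldh1l2, counted as higher in both ways, passed the filter only through its KO libraries. None of the 10, and 0 (0%) of the 10407 genes tested, had a limma adjusted p under 0.05, where 759 genes (7.29%) passed unadjusted. Without WT 2, 3 of the 10 had an unadjusted p under 0.05 (Phgdh, Psat1 and Shmt2), while 318 of all genes did. With 2 libraries a group, the smallest two-sided p that an exact permutation test allows is 0.333.

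The same order of libraries recurred among the higher genes. Phgdh, Psat1, Psph, Mthfd1l and Aldh1l2 each ran from KO 1 at the top through KO 2 and WT 1 to WT 2. That order was held by 6.45% of all genes tested, and by 671 of the 1909 genes that were higher in both KO libraries. It was the commonest order among those 1909 genes. Mthfd2 alone among the higher genes had KO 2 above KO 1 and WT 2 above WT 1. Of the lower genes, Aldh1l1 ran in exactly the opposite order, which 7.47% of genes tested held. With 777 genes, this was also the commonest order among the 2056 genes that were lower in both KO libraries.

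Summed by arm, serine synthesis made up a larger share of the transcripts of the 10 genes in KO. The 3 serine synthesis genes summed to 115 and 88.9 FPKM in KO, against 71.7 and 61.3 FPKM in WT. That was 43.7% and 35.5% of the summed level of the 10 genes in KO, against 29.1% and 25.6% in WT. The cytosolic folate genes summed to 59.9 and 65.2 FPKM in KO, against 73.6 and 69.0 FPKM in WT. Mitochondrial folate genes, most of whose sum is Shmt2, summed to 89.0 and 96.1 FPKM in KO, against 101 and 109 FPKM in WT. Both folate arms thus lay lower in both KO libraries, and the total over the 10 genes was 264 and 250 FPKM in KO, against 246 and 239 FPKM in WT.

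**Figure D3:**
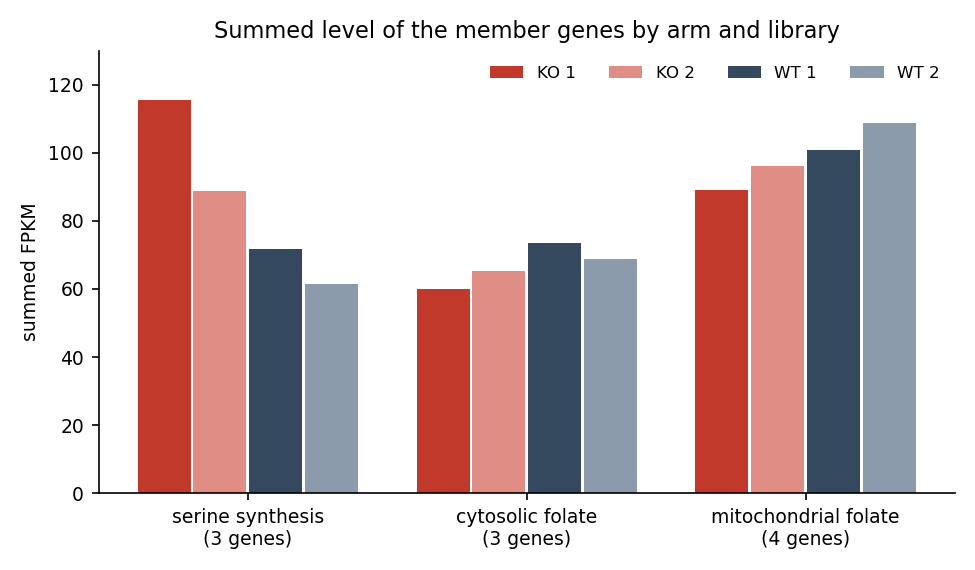
Summed FPKM of the serine synthesis (3), cytosolic folate (3) and mitochondrial folate (4) genes in KO 1, KO 2, WT 1 and WT 2, as bars from 0. The serine synthesis bars are 115 and 88.9 FPKM in KO, against 71.7 and 61.3 FPKM in WT, while both folate arms are lower in KO.

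Ratios within a library, which no scaling of whole libraries can alter, showed how the enzymes stood to each other. Psat1 was 1.23 and 0.976 times the level of Shmt2 in the KO libraries, against 0.567 and 0.486 times in the WT libraries. In KO the 2 genes were thus nearly level, and their libraries overlapped, whereas in WT every Shmt2 value exceeded every Psat1 value. Aldh1l2 was 0.0784 and 0.0461 times the level of Aldh1l1 in KO, against 0.0272 and 0.0174 times in WT, so the mitochondrial enzyme remained the minor one in all 4 libraries. For the hydroxymethyltransferases, Shmt2 was 3.52 and 2.98 times the level of Shmt1 in KO, against 3.48 and 4.03 times in WT, and the groups overlapped. Mthfd1l was 0.544 and 0.545 times the level of Mthfd1 in KO, against 0.394 and 0.457 times in WT, with the groups apart. The rank of mean levels differed accordingly: Phgdh held rank 6 in KO and rank 8 in WT, while Shmt1 held rank 8 in KO and rank 4 in WT. Between ranks 3 and 8 in KO, each gene's libraries overlapped those of the next. In WT the same held between ranks 4 and 7, and Phgdh at rank 8 overlapped Mthfd1l at rank 9.

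Genes that consume serine or glycine, or feed carbon into folate from other sources, included some of the larger differences around the 10 genes. Sds, the dehydratase that turns serine into pyruvate, stood at 2.65 and 1.94 FPKM in KO, against 4.69 and 7.89 FPKM in WT, a log2 difference of -1.12 (SE 0.25, limma adjusted p = 0.519). Phgdh was 8.78 and 8.01 times the level of Sds in KO, against 2.64 and 1.06 times in WT. Gldc, the decarboxylase of the glycine cleavage system, stood at 19.2 and 19.5 FPKM in KO, against 28.7 and 34.1 FPKM in WT (-0.67, limma adjusted p = 0.469). Glyctk, the glycerate kinase, stood at 31.0 and 36.3 FPKM in KO, against 53.8 and 52.8 FPKM in WT (-0.65), and the hydroxypyruvate reductase gene Grhpr differed by -0.40. In the other direction were the neutral amino acid transporter gene Slc1a4 (0.50), at 22.6 and 26.7 FPKM in KO, against 17.8 and 16.5 FPKM in WT, and the glycine transporter gene Slc6a9 (0.31). Of 14 tested genes of serine and glycine use and transport, 2 were higher and 3 lower at an unadjusted limma p under 0.05 (3.1% and 4.19% of all genes tested were), with a median log2 difference of 0.06. Of 9 genes of glycine cleavage and choline breakdown, 0 were higher and 2 lower, Gldc and the choline dehydrogenase gene Chdh (-0.43), against the same 3.1% and 4.19%, and the median was 0.11.

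Folate supply genes went in both directions. Slc19a1, the reduced folate carrier, stood at 25.1 and 27.4 FPKM in KO, against 20.6 and 21.0 FPKM in WT (0.32, limma adjusted p = 0.586), and the folate hydrolase gene Ggh differed by 0.36. Mthfs, which returns formyl-tetrahydrofolate to the active pool, stood at 3.42 and 3.90 FPKM in KO, against 6.34 and 8.56 FPKM in WT (-0.85, limma adjusted p = 0.518). It has a like-named copy, Mthfsl, with which it may share fragments (8.72 and 10.9 FPKM in KO, against 10.9 and 13.7 FPKM in WT). Of 13 tested genes of this list 2 were higher and 1 lower at an unadjusted limma p under 0.05, beside 3.1% higher and 4.19% lower among all genes tested, with a median log2 difference of -0.04.

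In the methionine cycle, which takes up folate-borne methyl groups, 2 of 15 tested genes were higher and 2 lower at that threshold, which 3.1% and 4.19% of all genes tested met, with a median of -0.10. The higher ones were Mtrr, which reactivates methionine synthase (0.38), and Cth, the cystathionine lyase of cysteine synthesis (0.32). Ahcy, which hydrolyses S-adenosylhomocysteine (94.4 and 125 FPKM in KO, against 136 and 180 FPKM in WT, -0.52), and the methionine adenosyltransferase gene Mat2a (-0.30) were the lower ones. Purine synthesis, which draws on folate carbon, had 0 of 6 tested genes past that threshold in either direction (7.29% of all genes tested were), a range from -0.16 to 0.17 and its largest values in Atic (0.17) and Adsl (0.17).

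**Figure D4:**
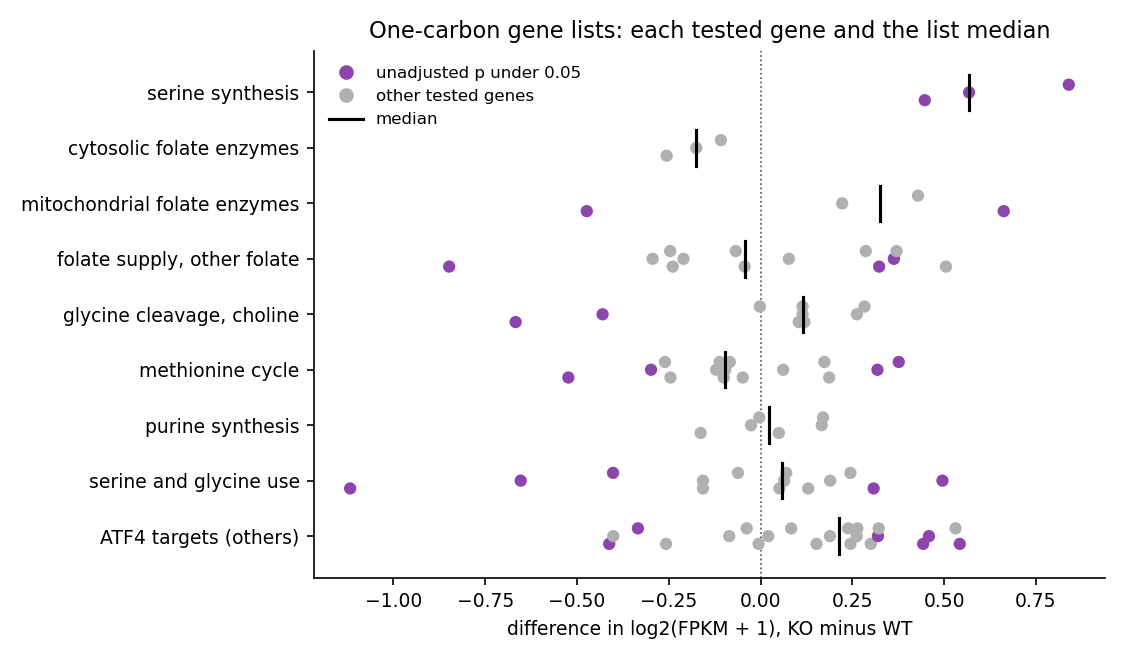
Difference in log2(FPKM + 1), KO minus WT, of every tested gene in 9 lists around serine and one-carbon metabolism, with genes at an unadjusted limma p under 0.05 in purple, other tested genes in grey and the list median as a black line. The serine synthesis list lies wholly above 0 (median 0.57), the cytosolic folate list wholly below it (median -0.18), and purine synthesis lies between -0.16 and 0.17.

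The list of ATF4 targets outside the 10 genes also held Atf4 itself. Of its 22 tested genes, 4 were higher and 2 lower at an unadjusted limma p under 0.05, where 3.1% and 4.19% of all genes tested were. The median log2 difference of the list was 0.21. The higher ones were Aldh18a1 of proline synthesis (0.54), the amino acid transporter gene Slc7a5 (0.46), the pseudokinase gene Trib3 (0.44) and the asparagine synthetase gene Asns (0.32). Asns stood at 37.2 and 32.6 FPKM in KO, against 30.1 and 25.4 FPKM in WT. Vegfa (-0.41) and the alanine aminotransferase gene Gpt2 (-0.33) were lower. Atf4 itself stood at 152 and 171 FPKM in KO, against 155 and 163 FPKM in WT, with overlapping groups and a log2 difference of 0.02 (SE 0.11, 95% interval -0.25 to 0.29, limma adjusted p = 0.981).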

How the data were processed

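mRNA libraries of 2 KO and 2 WT hepatocyte cultures were prepared, per the labels' protocols, with Illumina's stranded TruSeq reagents. Alignment and quantification tools are listed without roles in the submitters' processing notes as Cuffdiff 2.2.1, Cufflinks and STAR 2.5.0, with build mm10. The authors deposited 1 value per gene and library, read here as FPKM from those tools and from the values, since the file names no unit. The gene annotation used by the authors is not given in those notes. Of 22079 gene identifiers, 21984 matched a symbol in GENCODE M21 (GRCm38, the same build), from which positions and overlaps were taken.

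Values were transformed as log2(FPKM + 1). Genes averaging 1 FPKM or more (10407) were tested, KO against WT, with limma 3.58.1 in R 4.3.3 (intensity trend, two-sided, genotype only), Benjamini-Hochberg adjusted over all genes tested. Prom1 lay under the filter. Depth was estimated from steps of low values of genes with 1 transcript, assuming fragments of 200 bases. Only 28.4% to 31.1% of them lay within 0.1 of a whole fragment, where an even spread gives 20%. The depth was chosen to fit these steps best, which can by itself lift that share above 20%. The depth is therefore rough and whole fragments were not recovered. The p-values set the group difference against the spread between 2 libraries per group. Limma draws that spread towards the spread of other genes of similar level.

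The 10 genes and all lists were chosen with earlier results of these data known. Named from the other pathway lists are genes with an unadjusted p under 0.05, or otherwise the 2 with the largest difference. Outside this rule, Atf4, Mthfsl, the overlapping genes and the cell type markers were named after their values were seen. Protein sequences were not used here. Alternatives were the pseudocount, library scaling, the filter, the spread estimate, a replicate block and leaving out each library.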

Additional observations from a re-analysis of the deposited data

How the results depend on the processing

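Leaving out a library moved the number of genes with a limma adjusted p under 0.05 from 0 to between 0 and 8 (5 without KO 1, 8 without WT 1), and none of the 10 genes was among them. The number of the 10 genes with an unadjusted p under 0.05 was 5 with all libraries and between 3 and 6 with 1 left out. Mthfd1 was the only gene of the 10 to change sign under any alternative run: its log2 difference was 0.0496 without WT 1 and -0.2652 without WT 2, the ends of its range with 1 library left out, and the cause was not tested. With a pseudocount of 0.1 or 5 FPKM, libraries rescaled to a common total or by median ratio, no filter, a filter at a mean of 5 FPKM, no intensity trend or a robust spread, 0 genes passed the adjusted threshold, and the 5 genes stayed under an unadjusted p of 0.05, except that Aldh1l2 was not tested under the stricter filter. With the replicate number as a block, a pairing the labels do not state, 0 genes passed, 1054 had an unadjusted p under 0.05 and 6 of the 10 genes did. Deviations of same-numbered libraries correlated at 0.1511 over 10407 genes. In log2(FPKM + 1) over these genes, KO 1 and KO 2 correlated at 0.9857 and WT 1 and WT 2 at 0.9858. WT 1 correlated slightly higher with KO 1 (0.988) and KO 2 (0.9884), and WT 2 lower with them (0.9764 and 0.9811). Alb, listed at 0 in WT 2, was among these genes. Over all genes tested, the count of unadjusted p under 0.05 was 759 with all libraries and ran from 318 (without WT 2) to 1227 (without KO 2) with 1 left out, where the lone library of a group is assumed to vary like the other group.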
